A study of Homo sapiens with 6 samples.

Results

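The genes described are 10 enzymes and helpers that modify, fold, trim and crosslink collagen, chosen by name from the 20532 genes of the deposited count table. They are P4HA1, P4HA2, P3H1, PLOD1, PLOD2, SERPINH1, PCOLCE, LOX, LOXL1 and LOXL2, and each had 1 row. RNA abundance was measured by paired-end sequencing of libraries enriched for mRNA from ACHN, an established human renal carcinoma line that the labels assign to clear cell renal cell carcinoma. In 3 libraries (shDNAJC2 1, 2 and 3) the cells stably carried a lentiviral short hairpin RNA against DNAJC2, which encodes a co-chaperone of the ribosome. In 3 libraries (shCtrl 1, 2 and 3) they carried a negative control hairpin, so lentiviral transduction was shared by both groups. The 3 libraries of a group are described as biological replicates. Nothing stated whether the replicates came from separate transductions or clones, or how many hairpin sequences were used, so p-values measure the spread between these libraries.

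Collagen chains are modified while they enter the endoplasmic reticulum. Prolyl 4-hydroxylases stabilise the triple helix, prolyl 3-hydroxylase 1 works in a complex that also aids folding, and lysyl hydroxylases prepare lysines for glycosylation and crosslinking. SERPINH1 (HSP47) is the chaperone that binds the folded triple helix. Outside the cell, PCOLCE enhances removal of the C-terminal propeptide, and lysyl oxidases oxidise lysines so that fibres crosslink. The hydroxylases need oxygen, iron, 2-oxoglutarate and ascorbate, and the genes P4HA1, PLOD2 and LOX are known targets of hypoxia-inducible factor (HIF) in human cells.

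P4HA1, PLOD2 and LOX shared one pattern over the libraries. For PCOLCE, the knockdown values all lay under those of the controls. LOXL1 had a lower mean in the knockdown, but its groups overlapped, with shCtrl 3 among the knockdown libraries. The regions before the starts of these 5 genes are therefore shown. Each is the 250 bases before the RefSeq start on GRCh38.p14, on the gene's strand, 5′ to 3′. Capitals mark the core letters of the HIF motif, ACGTG or GCGTG, searched on both strands, so that CACGT and CACGC are matches on the other strand. The windows are chr10:73096867-73097116 (minus strand) for P4HA1, chr3:146161185-146161434 (minus strand) for PLOD2, chr5:122078260-122078509 (minus strand) for LOX, chr7:100602113-100602362 (plus strand) for PCOLCE and chr15:73926212-73926461 (plus strand) for LOXL1.
P4HA1: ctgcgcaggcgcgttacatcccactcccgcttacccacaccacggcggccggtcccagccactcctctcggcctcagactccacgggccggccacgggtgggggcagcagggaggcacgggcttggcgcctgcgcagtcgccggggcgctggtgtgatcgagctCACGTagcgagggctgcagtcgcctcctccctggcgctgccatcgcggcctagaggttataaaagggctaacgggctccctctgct
PLOD2: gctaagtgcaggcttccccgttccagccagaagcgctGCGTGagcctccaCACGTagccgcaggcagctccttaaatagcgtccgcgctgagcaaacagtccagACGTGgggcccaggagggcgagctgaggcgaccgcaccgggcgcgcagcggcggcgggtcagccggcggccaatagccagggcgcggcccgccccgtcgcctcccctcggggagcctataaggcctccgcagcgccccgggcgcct
LOX: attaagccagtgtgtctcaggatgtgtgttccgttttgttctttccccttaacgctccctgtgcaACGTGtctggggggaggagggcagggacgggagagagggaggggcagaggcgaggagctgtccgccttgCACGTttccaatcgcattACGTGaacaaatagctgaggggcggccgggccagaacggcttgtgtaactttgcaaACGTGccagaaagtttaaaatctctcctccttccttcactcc
PCOLCE: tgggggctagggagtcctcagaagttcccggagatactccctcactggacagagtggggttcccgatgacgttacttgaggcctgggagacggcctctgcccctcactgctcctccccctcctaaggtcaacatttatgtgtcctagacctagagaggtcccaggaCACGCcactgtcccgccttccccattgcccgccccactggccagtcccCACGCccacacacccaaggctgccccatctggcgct
LOXL1: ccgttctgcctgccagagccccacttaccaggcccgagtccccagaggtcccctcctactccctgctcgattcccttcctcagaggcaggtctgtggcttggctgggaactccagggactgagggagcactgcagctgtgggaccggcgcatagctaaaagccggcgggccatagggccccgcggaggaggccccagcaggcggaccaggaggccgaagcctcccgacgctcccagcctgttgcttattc
The window held 1 match in P4HA1, 3 in PLOD2, 4 in LOX, 2 in PCOLCE and 0 in LOXL1. Of the other members with a window in the RefSeq table, PLOD1 had 2 matches, P3H1 had 1, and P4HA2 and SERPINH1 had 0, and LOXL2 was not matched. At least 1 match occurred in 43.2% of 35116 windows of this length, so a match is common, and it is a description of letters only. The match in P4HA1 began 86 bases before the start, and those in LOX began 185, 116, 98 and 42 bases before it.

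The targeted gene was measured first. DNAJC2 was at 51.2, 50.4 and 38.5 CPM (counts scaled to library size with edgeR's TMM factors) in shDNAJC2 1, 2 and 3, against 76.7, 69.8 and 86.5 CPM in shCtrl 1, 2 and 3. The groups did not overlap, with a log2 fold change of −0.74 (SE 0.15, edgeR adjusted p = 0.43). By exact permutation of the libraries (two-sided) p was 0.1, and no smaller p can be had from 3 against 3. Total counts were 17491462 to 24308609 in the knockdown and 22687843 to 25760291 in the control libraries. The control library shCtrl 3 stood apart from the other controls in most genes. It differed more than 2-fold from shCtrl 1 in 2080 genes and from shCtrl 2 in 1938, while shCtrl 1 and shCtrl 2 differed in 48. From shDNAJC2 1, 2 and 3 it differed in 165, 78 and 571 genes. Fold changes of the members are therefore given with and without it, a choice made with the data already seen. Where shCtrl 3 lay with the knockdown, leaving it out widens the difference between the groups. Calls and p-values without it thus describe the remaining libraries and are not separate support. Of the 9 renal epithelial markers used, some were low and others well expressed. The renal factor genes PAX8, PAX2 and LHX1 were at 2.82 to 4.64 CPM, at most 1 count and at most 4 counts over the 6 libraries, EPCAM was at 0.840 to 1.43 CPM and KRT19 at 0.875 to 2.43 CPM. The keratin gene KRT18 was at 66.5 to 89.8 CPM, KRT8 at 30.9 to 41.7 CPM, and the cadherin genes CDH2 and CDH6 at 98.0 to 172 CPM and 17.7 to 127 CPM. The 9 summed to 273 to 313 CPM in the knockdown and 318 to 341 CPM in the control libraries. The 8 fibroblast markers summed to 4018 to 4326 CPM in the knockdown and 4208 to 4961 CPM in the control libraries, and the collagen chain gene COL6A3 made up 86.7% to 88.6% of that sum. Without COL6A3 the other fibroblast markers summed to 499 to 531 CPM in the knockdown and 537 to 567 CPM in the controls. Among them PDGFRA was at 128 to 186 CPM, THY1 at 162 to 290 CPM, and DCN, LUM and FAP at 14.1 to 27.5 CPM over the 6 libraries, while DPT had 0 counts. PDGFRB had a log2 fold change of −0.47 (edgeR adjusted p = 0.43) and fell by 0.59 without shCtrl 3 (edgeR adjusted p = 0.0035). It was the 1 fibroblast marker called of 7 tested in that fit, where 17% of all tested genes passed as lower. In the same fit, 1 of the 7 renal markers tested passed as higher (CDH2) and 2 as lower (CDH6 and KRT19). Of the 5 endothelial markers tested, 2 passed as higher (KDR and PECAM1) and 1 as lower (TEK). As higher passed 17.8% of all tested genes, and of the 2 immune markers tested 0 passed. In edgeR over all 6 libraries 0 of these markers were called. Of the endothelial list CDH5 and EMCN had 0 counts in each library, TEK was at 49.9 to 71.2 CPM, and PECAM1, KDR, VWF and CLDN5 had counts in each library at 3.86 CPM or less. Of the immune list CD3E had 0 counts and CD68 was at 71.0 to 92.3 CPM, with the others at 1.97 CPM or less.

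All 10 members were detected in each library, at 682 to 21291 counts, and all passed the filter on low counts. In edgeR's quasi-likelihood test over all 6 libraries 0 of the 10 members passed an adjusted p of 0.05, as did 0% of the 13988 genes tested. At an unadjusted p under 0.05 stood 4 members, 2 higher (P4HA1 and PLOD2) and 2 lower (LOXL1 and PCOLCE) in the knockdown, where 11.3% of all tested genes had such a p. The median log2 fold change was −0.02 over the members and −0.02 over all genes tested. DESeq2, run on the same genes, called 1 member, PCOLCE, lower, where it called 0.25% of all genes. Without shCtrl 3, 3 members passed as higher (P4HA1, PLOD2 and LOX) and 3 as lower (LOXL1, PCOLCE and P3H1), where 17.8% of 14201 genes passed as higher, 17% as lower and 34.8% in all. The members' median was then 0.16, and that of all genes −0.01. The groups did not overlap for 2 members, PLOD2 and PCOLCE, where 15.8% of all tested genes did not overlap (7.33% higher and 8.43% lower). Leaving shCtrl 3 out, 5 members lay wholly above and 3 wholly below the other controls, where 32.3% of all tested genes lay above, 32.6% below and 65% in either place. Leaving shDNAJC2 3 out, 7 members did not overlap, as did 40% of all tested genes. Over all 6 libraries the count was 3 on total counts (16.1% of all tested genes), 1 with RLE size factors (15.7%) and 1 with the trend on GC content removed from each library (9.16%). These are bulk samples, in which fewer cells of a type and less RNA per cell cannot be told apart.

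**Figure D1:**
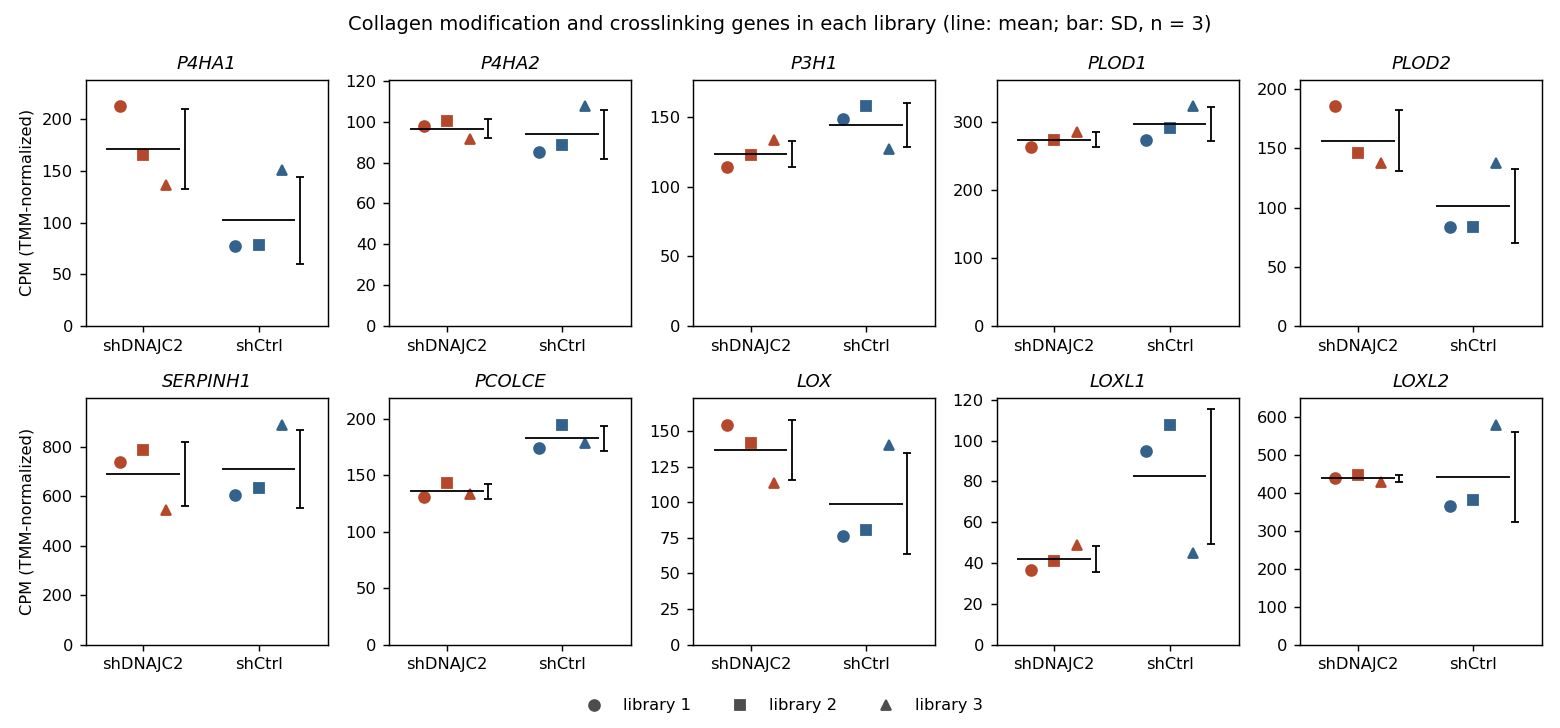
TMM-normalized CPM of each of the 10 genes in the 3 shDNAJC2 and 3 shCtrl libraries, 1 symbol shape per library number, with the group mean (line) and SD (bar, n = 3). PCOLCE lies at 130 to 143 CPM in the knockdown and at 174 to 195 CPM in the controls, while for P4HA1, LOX and LOXL1 the third control library lies among the knockdown libraries.

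Of the prolyl hydroxylases, P4HA1 had high values in the knockdown and in shCtrl 3, and P4HA2 varied little. P4HA1 (ENSG00000122884, chr10:73007217-73096974, minus strand) encodes a catalytic alpha subunit of prolyl 4-hydroxylase. Its values were 213, 166 and 136 CPM in shDNAJC2 1, 2 and 3, against 77.7, 78.7 and 151 CPM in shCtrl 1, 2 and 3. Thus shCtrl 1 and shCtrl 2 were below each other library, and shCtrl 3 lay within the range of the knockdown. The means were 172 ± 38.6 CPM in the knockdown and 102 ± 41.9 CPM in the controls (SD, n = 3 each), a log2 fold change of 0.74 (95% interval 0.03 to 1.46, edgeR adjusted p = 0.43). Without shCtrl 3, P4HA1 rose by 1.14 (95% interval 0.75 to 1.53, edgeR adjusted p = 0.0019). Over all 6 libraries with the GC trend removed, its log2 fold change was 0.62 (95% interval −0.16 to 1.40).

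P4HA2 (ENSG00000072682, chr5:132191838-132295315, minus strand) encodes the alternative alpha subunit. Its values were 97.7, 100.5 and 91.4 CPM in shDNAJC2 1, 2 and 3, against 85.2, 88.7 and 108 CPM in shCtrl 1, 2 and 3. The groups overlapped, and shCtrl 3 was the highest library. Its log2 fold change was 0.04 with a 95% interval of −0.24 to 0.33, and 0.15 (−0.06 to 0.37) without shCtrl 3. The ratio of P4HA1 to P4HA2 counts within a library does not depend on library size. It was 2.18, 1.65 and 1.49 in shDNAJC2 1, 2 and 3, against 0.911, 0.888 and 1.40 in shCtrl 1, 2 and 3. All knockdown libraries were above all controls, yet the exact 95% counting interval of the lowest knockdown ratio, 1.42 to 1.57, overlapped that of shCtrl 3, 1.33 to 1.47. P4HB, the shared beta subunit of the enzyme, was at 1031, 1096 and 987 CPM in the knockdown and 944, 1009 and 1205 CPM in the controls, with overlap.

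P3H1 (ENSG00000117385, on chromosome 1) encodes prolyl 3-hydroxylase 1, which acts with CRTAP and the isomerase PPIB. Its values were 115, 123 and 133 CPM in shDNAJC2 1, 2 and 3, against 149, 158 and 127 CPM in shCtrl 1, 2 and 3. The controls shCtrl 1 and shCtrl 2 were above each knockdown library, and shCtrl 3 lay among them. The log2 fold change was −0.23 (95% interval −0.52 to 0.06, edgeR adjusted p = 0.44), and without shCtrl 3 P3H1 fell by 0.31 (edgeR adjusted p = 0.043). The partners differed less: CRTAP was at 199 to 201 CPM in the knockdown and 201 to 220 CPM in the controls, and PPIB at 469 to 514 CPM in the knockdown and 478 to 491 CPM in the controls.

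The lysyl hydroxylases split in the same manner as the prolyl 4-hydroxylase subunits. PLOD2 (ENSG00000152952, on chromosome 3), which hydroxylates lysines of the telopeptides that enter crosslinks, was at 186, 146 and 137.5 CPM in shDNAJC2 1, 2 and 3, against 83.3, 83.2 and 137.5 CPM in shCtrl 1, 2 and 3. Here shDNAJC2 3 and shCtrl 3 were equal to 4 digits, so that the lack of overlap rested on a margin in the fifth, and the groups overlapped with RLE size factors. PLOD2 averaged 157 ± 25.6 CPM in the knockdown and 101 ± 31.3 CPM in the controls (SD, n = 3 each), a log2 fold change of 0.63 (95% interval 0.08 to 1.18, edgeR adjusted p = 0.43). Without shCtrl 3 it rose by 0.91 (95% interval 0.60 to 1.23, edgeR adjusted p = 0.0018). Over all 6 libraries with the GC trend removed, the log2 fold change of PLOD2 was 0.42 (95% interval −0.18 to 1.03). PLOD1 (ENSG00000083444, on chromosome 1), which hydroxylates lysines in the helix, was at 263, 274 and 285 CPM in shDNAJC2 1, 2 and 3, against 274, 292 and 323 CPM in shCtrl 1, 2 and 3. The groups overlapped, and the log2 fold change was −0.11 (95% interval −0.38 to 0.15), and −0.04 (−0.27 to 0.18) without shCtrl 3. The third enzyme of the family, PLOD3, was at 222, 256 and 218 CPM in the knockdown and 219, 240 and 302 CPM in the controls, also with overlap.

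The ratio of PLOD2 to PLOD1 counts was 0.705, 0.535 and 0.482 in shDNAJC2 1, 2 and 3, against 0.304, 0.285 and 0.425 in shCtrl 1, 2 and 3. Each knockdown library was above each control, and the exact 95% counting interval of the lowest knockdown ratio (0.463 to 0.502) did not reach that of shCtrl 3 (0.408 to 0.443). These intervals cover counting error only. PLOD2 had a GC content of 34.4% and PLOD1 of 58.6% in the longest annotated transcript. With the trend on GC content removed from each library, the PLOD2 to PLOD1 ratio was 0.522, 0.518 and 0.472 in the knockdown and 0.322, 0.315 and 0.520 in the controls, so that the groups overlapped. The P4HA1 to P4HA2 ratio overlapped too, at 1.99, 1.67 and 1.48 in the knockdown and 0.901, 0.891 and 1.55 in the controls. GC content was 40.8% for P4HA1 and 49.1% for P4HA2.

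**Figure D2:**
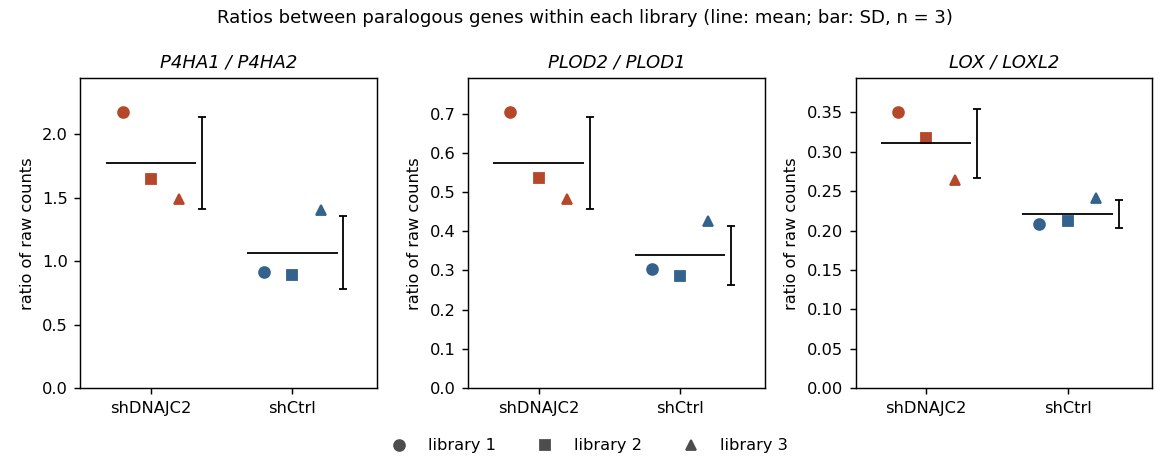
Ratio of raw counts between paralogous genes in each library (P4HA1 to P4HA2, PLOD2 to PLOD1, LOX to LOXL2), with the group mean (line) and SD (bar, n = 3). The third control library has the highest control ratio in each panel, 1.40, 0.425 and 0.241, just under the lowest knockdown ratio of 1.49, 0.482 and 0.264.

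SERPINH1 was the most abundant member and followed no group. SERPINH1 (ENSG00000149257, on chromosome 11) was at 740, 789 and 546 CPM in shDNAJC2 1, 2 and 3, against 605, 634 and 891 CPM in shCtrl 1, 2 and 3. The lowest value was in shDNAJC2 3 and the highest in shCtrl 3. Its log2 fold change was −0.04 with a 95% interval of −0.55 to 0.47, wide enough to hold a change in either direction, and 0.16 (−0.20 to 0.53) without shCtrl 3.

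For PCOLCE all 3 knockdown libraries lay below all 3 controls, shCtrl 3 included. PCOLCE (ENSG00000106333, on chromosome 7) encodes procollagen C-endopeptidase enhancer, a secreted protein that speeds cleavage of procollagen by BMP1. Its values were 130, 143 and 133 CPM in shDNAJC2 1, 2 and 3, against 174, 195 and 178 CPM in shCtrl 1, 2 and 3. The means were 136 ± 6.65 CPM in the knockdown and 182 ± 10.8 CPM in the controls (SD, n = 3 each), a log2 fold change of −0.43 (SE 0.10, 95% interval −0.67 to −0.19). It ranked 42 by p among the 13988 genes tested. Its adjusted p was 0.43 in edgeR and 0.046 by DESeq2, and 0.011 in edgeR without shCtrl 3, where it fell by 0.44. PCOLCE was the 1 member for which shCtrl 3 lay within the range of shCtrl 1 and shCtrl 2, as it did for 7.65% of all tested genes. The GC content of PCOLCE was 62.0%, against a median of 48.5% over tested genes. With the GC trend removed the log2 fold change was −0.20 (edgeR adjusted p = 0.61), at 157, 150 and 133 CPM in the knockdown and 164, 182 and 161 CPM in the controls, still without overlap.

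**Figure D3:**
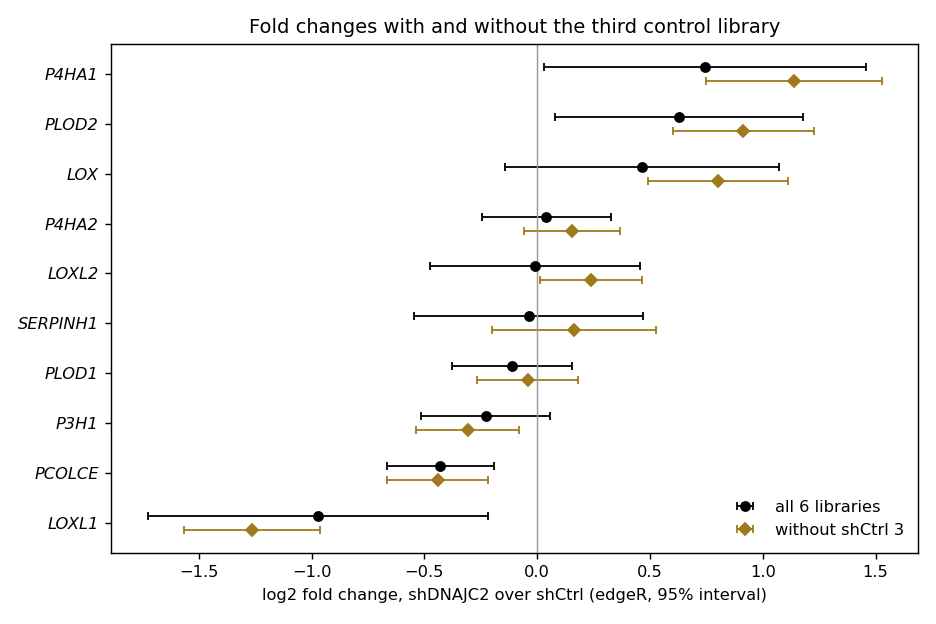
Fitted log2 fold change of shDNAJC2 over shCtrl for each gene (edgeR, 95% interval), over all 6 libraries (circles) and without shCtrl 3 (diamonds). PCOLCE keeps its value, −0.43 and −0.44, while P4HA1 is at 0.74 with that library and 1.14 without it.

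The lysyl oxidases went different ways. LOX (ENSG00000113083, on chromosome 5), the founding lysyl oxidase, was at 155, 142 and 113 CPM in shDNAJC2 1, 2 and 3, against 76.6, 80.6 and 140 CPM in shCtrl 1, 2 and 3. As for P4HA1, shCtrl 1 and shCtrl 2 were the lowest libraries and shCtrl 3 lay within the range of the knockdown. LOX averaged 137 ± 21.2 CPM in the knockdown and 99.1 ± 35.6 CPM in the controls (SD, n = 3 each). The log2 fold change was 0.46 (95% interval −0.14 to 1.07, edgeR adjusted p = 0.45), and without shCtrl 3 LOX rose by 0.80 (edgeR adjusted p = 0.0032). Over all 6 libraries with the GC trend removed it was 0.33 (95% interval −0.36 to 1.02). LOX was then at 140, 144 and 111 CPM in the knockdown and 76.8, 81.9 and 155 CPM in the controls, with shCtrl 3 highest.

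LOXL1 (ENSG00000129038, on chromosome 15), known for its part in elastic fibre assembly, had the largest ratio between its highest and lowest library among the members (2.96). Its values were 36.4, 40.8 and 48.8 CPM in shDNAJC2 1, 2 and 3, against 94.7, 108 and 44.9 CPM in shCtrl 1, 2 and 3. The controls shCtrl 1 and shCtrl 2 were above all other libraries, and shCtrl 3 lay among the knockdown. LOXL1 averaged 42.0 ± 6.26 CPM in the knockdown and 82.5 ± 33.2 CPM in the controls (SD, n = 3 each). The log2 fold change was −0.97 (95% interval −1.73 to −0.22, edgeR adjusted p = 0.43), and without shCtrl 3 LOXL1 fell by 1.26 (95% interval −1.56 to −0.96, edgeR adjusted p = 4.0e-04). The GC content of LOXL1 was 67.6%, the highest of the members. Over all 6 libraries with the GC trend removed, its log2 fold change was −0.71 (95% interval −1.51 to 0.09). LOXL1 was then at 46.5, 43.0 and 49.4 CPM in the knockdown and 87.9, 99.8 and 38.7 CPM in the controls, with shCtrl 3 lowest.

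LOXL2 (ENSG00000134013), which can crosslink collagen IV of basement membranes, was at 441, 448 and 430 CPM in shDNAJC2 1, 2 and 3, against 367, 381 and 581 CPM in shCtrl 1, 2 and 3. The knockdown libraries lay close together, between shCtrl 2 below and shCtrl 3 above. Its log2 fold change was −0.01 (95% interval −0.48 to 0.45), and 0.24 (0.01 to 0.47, edgeR adjusted p = 0.095) without shCtrl 3. The ratio of LOX to LOXL2 counts was 0.351, 0.318 and 0.264 in the knockdown and 0.209, 0.212 and 0.241 in the controls, without overlap. With the GC trend removed it was 0.276, 0.309 and 0.261 in the knockdown and 0.219, 0.225 and 0.287 in the controls, with overlap. GC content was 39.6% for LOX and 58.2% for LOXL2.

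Over the members, shCtrl 3 was the highest of the 6 libraries for 4 (P4HA2, PLOD1, SERPINH1 and LOXL2), against 22.8% of all tested genes. It lay within the range of the knockdown libraries for 4 others (P4HA1, P3H1, LOX and LOXL1), against 42% of all tested genes. The members' largest ratio between the highest and the lowest library was 2.96 for LOXL1 and 2.74 for P4HA1, and the smallest was 1.23 for PLOD1.

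Levels between genes were compared per kilobase of annotated exon. SERPINH1 was first with a mean of 112 ± 20.5 CPM per kilobase (SD over 6 libraries), followed by LOXL2 at 77.3 ± 13.3, whose range overlapped that of SERPINH1. PLOD1 followed at 53.6 ± 3.97 CPM per kilobase, below LOXL2 in all comparisons of libraries. PCOLCE was at 45.0 ± 7.63 and P4HA1 at 44.3 ± 16.9 CPM per kilobase. LOX, P3H1, LOXL1 and PLOD2 were close together at 21.3, 19.8, 17.1 and 16.9 CPM per kilobase, and P4HA2 was last at 11.2 ± 0.979. From PLOD1 down, each gene's range over the libraries overlapped that of the next.

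Some reads may not belong to the member, or to DNAJC2. The strand setting of the counting was not given in the sources used here. On the opposite strand LOX shares 138 exonic bases with SRFBP1, PCOLCE 585 with PCOLCE-AS1 and LOXL1 335 with LOXL1-AS1. P4HA2 likewise shares 548 with P4HA2-AS1, P4HA1 47 with AL731563.2 and LOXL2 178 with AC090197.1. The targeted gene DNAJC2 shares 628 with PMPCB, also on the opposite strand. LOXL2 shares 120 with ENTPD4 on the same strand.

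The other genes of collagen modification, processing and crosslinking were a list of 31, of which 29 were tested. Over all 6 libraries 0 passed in edgeR. At an unadjusted p under 0.05 stood 1 higher and 7 lower, where 4% of all genes were higher and 7.33% lower at that p. Groups did not overlap for 2 as higher and 7 as lower, where 7.33% and 8.43% of all tested genes did so. Without shCtrl 3, 6 of the 29 rose and 9 fell, where 17.8% of all tested genes passed as higher and 17% as lower. The median log2 fold change of the 29 was −0.14. The lowest p was that of CREB3L1, a transcription factor that drives collagen secretion genes, at 86.9, 101 and 87.0 CPM in shDNAJC2 1, 2 and 3, against 144, 152 and 122 CPM in shCtrl 1, 2 and 3 (log2 fold change −0.60, SE 0.12). BMP1, the protease that PCOLCE assists, was at 63.6, 73.0 and 77.2 CPM in the knockdown and 96.6, 98.1 and 86.0 CPM in the controls, a log2 fold change of −0.39. ADAMTS2, which removes the N-terminal propeptide, was at 16.0, 13.9 and 17.0 CPM in the knockdown and 31.8, 33.8 and 18.5 CPM in the controls. EFEMP2, a fibulin that binds LOX, was at 96.7, 110 and 100.4 CPM in the knockdown and 147, 154 and 125 CPM in the controls. LOXL4 was at 2.87, 2.15 and 2.78 CPM in the knockdown and 4.88, 5.23 and 3.31 CPM in the controls. For these 5 genes the groups did not overlap, and without shCtrl 3 each of them fell in edgeR. Their GC content was 54.9% to 61.1%. With the GC trend removed the log2 fold change was −0.40 for CREB3L1, −0.19 for BMP1, −0.70 for ADAMTS2, −0.39 for EFEMP2 and −0.63 for LOXL4. The ion channel gene TMEM38B was higher, at 22.9, 20.3 and 17.3 CPM in the knockdown and 15.0, 13.9 and 16.7 CPM in the controls, with a log2 fold change of 0.41 that was 0.22 with the GC trend removed. The paralog LOXL3 was at 48.7, 52.8 and 59.4 CPM in the knockdown and 64.9, 67.6 and 58.6 CPM in the controls, with overlap.

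Of the 13 collagen chain genes tested, 9 were lower in each knockdown library and in shCtrl 3 than in shCtrl 1 and shCtrl 2, an order found in 28.9% of all tested genes. COL1A1 was at 572, 623 and 1066 CPM in the knockdown and 2796, 2785 and 695 CPM in the controls, and COL5A1 at 45.5, 50.0 and 56.4 CPM in the knockdown and 126, 125 and 59.1 CPM in the controls, without overlap for COL5A1. Of the 13 chain genes 0 passed over all libraries, and without shCtrl 3, 9 fell and 0 rose, against 17% and 17.8% of all tested genes. Groups did not overlap for 2 of the 13 as lower (COL5A1 and COL4A2), where 8.43% of all tested genes did so. Of the network-forming chain genes, COL4A5 and COL4A6 had the order above. COL4A5 was at 51.3, 53.8 and 81.7 CPM in the knockdown and 114, 112 and 55.8 CPM in the controls. COL4A1 and COL4A2 did not have that order, and shCtrl 3 was their highest library. COL4A1 was at 578 to 631 CPM in the knockdown and 628 to 703 CPM in the controls, with an interval on both sides of 0. COL4A2 was at 903 to 1025 CPM in the knockdown and 1057 to 1294 CPM in the controls. Its interval, −0.58 to 0.08, also lay on both sides of 0.

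**Figure D4:**
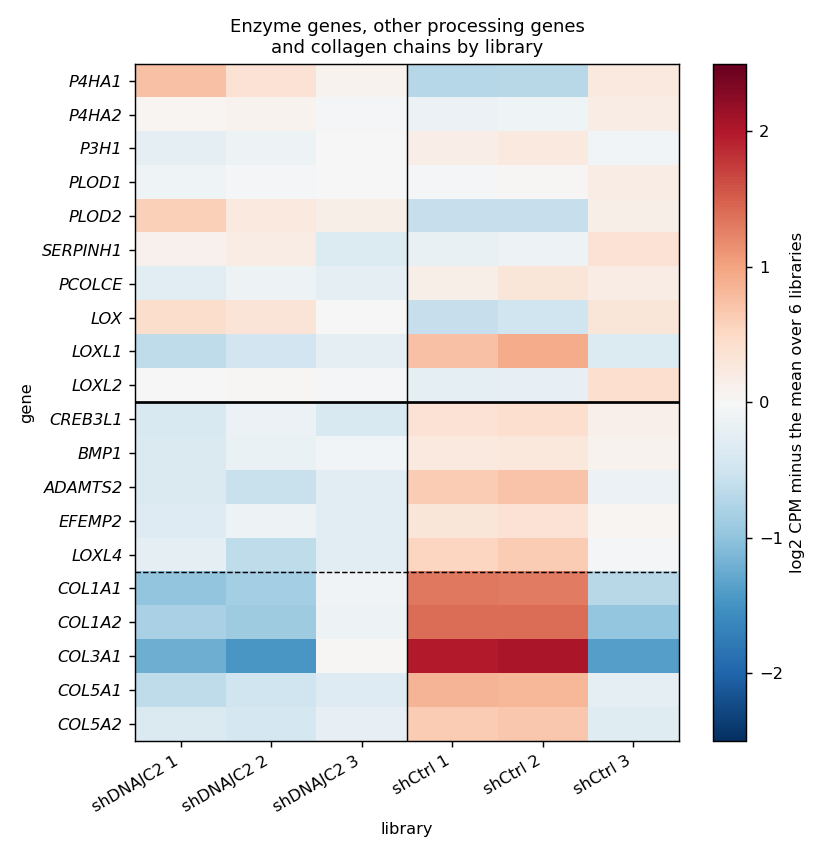
log2 CPM minus the mean over the 6 libraries for the 10 members (above the solid line), 5 other processing genes (between the lines) and 5 fibrillar collagen chains (below the dashed line), with shDNAJC2 libraries left and shCtrl libraries right. The third control column resembles the knockdown columns for P4HA1, LOX, LOXL1 and the chains, and has the colour of the other controls for PCOLCE.

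RNA levels of chosen lists of other target genes follow, which do not measure the activity of a pathway. The HIF targets other than members had a mean log2 level, relative to the 6-library mean, of 0.61, 0.56 and 0.04 in shDNAJC2 1, 2 and 3 and of −0.93, −0.86 and 0.58 in shCtrl 1, 2 and 3. The libraries in which this mean was high or low were thus those in which P4HA1, PLOD2 and LOX were high or low. Its part in their values was not tested. On the log2 scale shCtrl 3 lay nearer to the knockdown mean than to the mean of shCtrl 1 and shCtrl 2 in most genes. This held for 74.6% of all tested genes and for 8 of the 10 members, so a shared order of this kind is common in these data. Of the 19 HIF targets tested 0 passed over all libraries (median log2 fold change 0.56), and all 19 rose without shCtrl 3, where 17.8% of all tested genes passed as higher. The mean of the TGF-beta targets differed little, at 0.00, 0.04 and −0.12 in the knockdown and −0.06, −0.03 and 0.17 in the controls, but single targets went in opposite directions. Of the 11 tested 0 passed, with a median log2 fold change of −0.18, and without shCtrl 3, 2 rose and 4 fell, against 17.8% and 17% of all tested genes. In that fit INHBA rose by 1.58 and TNS1 fell by 1.36. Over all 6 libraries 0 were higher and 4 lower at an unadjusted p under 0.05, against 4% and 7.33% of all genes. Groups did not overlap for 0 as higher and 3 as lower, against 7.33% and 8.43%. Targets of ATF4, a stress-response factor, had a mean of 1.07, 1.13 and 0.39 in the knockdown and of −1.91, −1.87 and 1.20 in the controls. The ATF4 mean, like the HIF mean, was high or low in the libraries in which P4HA1, PLOD2 and LOX were. Its part in their values was not tested either. Of the 17 tested 0 passed, and 16 rose without shCtrl 3, against the same 17.8% of all tested genes.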

How the data were processed

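Gene-level RNA abundance was measured in 6 libraries. The deposited table holds the authors' raw read counts per gene. That they are unnormalized was read from the values, which are whole and sum to a different total per column. Per the submitters' processing notes, reads were placed on GRCh38 (hg38). Aligner, counting tool, annotation release and strand handling are not given in the sources used here. Column names equal library titles. Of 20532 genes, 20279 matched GENCODE 29 by identifier, which gave coordinates, exon length and GC content; promoter letters came from RefSeq (GRCh38.p14).

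Groups were compared with edgeR 4.0.16 (R 4.3.3): filterByExpr, TMM, quasi-likelihood F test (two-sided) with group as the only term, and Benjamini-Hochberg adjustment over all genes tested, with a threshold of 0.05. Intervals are at 95% and not adjusted, with the SE taken from the F statistic. log2 CPM used a prior count of 2. The alternatives were RLE and upper-quartile factors, 2 other filters, DESeq2 1.42.0, limma-voom (limma 3.58.1), a replicate block, a GC trend per library (spline with 5 degrees of freedom) used as an offset, and leaving out each library. Ratios and CPM with the GC trend removed were added after the data were seen. Counting intervals are exact (Clopper-Pearson). A count of 0 allows up to 3 counts, or 0.116 to 0.172 CPM; all such limits cover counting error only. Scripts were tested on simulated counts.

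The members and lists were chosen with earlier results of these data known. The text names DNAJC2, all 10 members, their partners and paralogs, and the marker genes. Of another list it names up to 6 genes by smallest p, and of the collagen chains also COL4A1, COL4A2, COL4A5 and COL4A6. The markers given values of their own were picked from their lists after their values were seen. A further gene of the renal marker list is not reported here and was left out of its sum.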

Additional observations from a re-analysis of the deposited data

How the results depend on the processing

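Calls changed under DESeq2, with 35 genes and 1 member, and in edgeR without shCtrl 3, with 4945 genes and 6 members, where edgeR over all 6 libraries called 0 and 0. Leaving out each library in turn gave 0 to 4945 genes, 0 to 6 members and 2 to 8 members without overlap, with 7 when shDNAJC2 3 was left out and 8 when shCtrl 3 was (40% and 65% of all tested genes). The last count was 2 with TMM factors, 3 on total counts, and 1 with RLE factors or with the GC trend removed, where 9.16% to 16.1% of all tested genes did not overlap. With that trend removed, the log2 difference of ratios was 0.42 for PLOD2 to PLOD1 and 0.22 for LOX to LOXL2, against 0.77 and 0.49 on raw counts. For DNAJC2 the adjusted p was 0.036 by DESeq2 (log2 fold change −0.73) and 0.0080 without shCtrl 3 (−0.65), and its log2 fold change ran from −0.81 to −0.60 as libraries were left out. No other setting changed a member's call.

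Among the genes named, leaving aside the markers, COL4A5 and COL4A6, the sign of the fold change turned for PLOD1, P4HA2, SERPINH1, LOXL2, P4HB, CRTAP, PPIB and PLOD3, none of them called. Of the marker genes, it turned under at least 1 setting for PAX8, EPCAM, KRT18, PDGFRA, LUM, FAP, THY1, CLDN5 and CD14. With the GC trend removed, without and with the replicate block, log2 fold changes were 0.054 and 0.056 for PLOD1, 0.10 and 0.094 for SERPINH1, 0.16 and 0.18 for LOXL2, 0.148 and 0.149 for P4HB, and 0.097 and 0.10 for PLOD3. LOXL2 was at 0.021 in limma-voom and 0.023 with the replicate block alone. As libraries were left out, values ran from −0.012 to 0.15 for P4HA2, −0.14 to 0.16 for SERPINH1, −0.12 to 0.24 for LOXL2, −0.080 to 0.092 for P4HB, −0.071 to 9.2e-04 for CRTAP, −0.0064 to 0.072 for PPIB and −0.21 to 0.022 for PLOD3. The cause of these differences was not tested. With the replicate block 0 genes were called. Deviations of same-numbered libraries correlated at −0.38, −0.52 and −0.66. In each group 1 library stood apart from the others, in opposite directions, and both bore the same number. These libraries can set the signs of the correlations, which therefore cannot decide whether the numbers pair the libraries.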
